A study of Mus musculus with 8 samples.

Results

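The cytochrome P450 genes of families 1 to 3 were examined in the liver of *Agpat3* WT and *Agpat3* KO mice. AGPAT3 is an acyltransferase that places docosahexaenoic acid (DHA) into membrane phospholipids, and the study compared the genotypes to learn how the liver responds when these phospholipids are missing. Total RNA was taken from the livers of 10-week-old male C57BL/6 mice, 4 of each genotype, and each liver was hybridized to 1 one-color Agilent array. The KO mice lack the gene in the whole body, the WT mice carry it, and no diet or drug treatment is given in the labels for either group. The arrays shared 1 slide and 1 scan, WT in its row 1 and KO in its row 2, so that slide row and genotype cannot be told apart.

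P450 enzymes of families 1 to 3 are heme proteins of the endoplasmic reticulum that oxidize drugs, pollutants, steroids, bile acids and fatty acids, and the liver is their main site. They take electrons from NADPH through P450 oxidoreductase. Several of them, mostly of the Cyp2c and Cyp2j groups, turn polyunsaturated fatty acids such as arachidonic acid and DHA into epoxides. Many are switched on by ligand-activated receptors, family 1 by AhR, Cyp2b genes by CAR and Cyp3a genes by PXR, and several differ between male and female mouse liver because growth hormone is secreted in different patterns in the sexes.

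A gene was taken as a member when its transcript accession on the array mapped in the mouse RefSeq table to a protein-coding gene named Cyp1, Cyp2 or Cyp3, a subfamily letter and a number. This held for 57 genes in the table. All but 1 had a probe, which gave 56 members with 69 probes among the 22911 genes that the array names. *Cyp2j12* had no probe. Each member was read from its brightest probe. Values are normalised log2 signals, the log2 of the processed intensity relative to the 75th percentile of the same array, so that 0 stands for that percentile and 1 unit for a doubling. Signals of different probes are not compared with each other, because each probe has its own brightness.

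The upstream sequences of the *Cyp2b* genes on which the results turn are shown first. They are the 250 bases before the annotated start of *Cyp2b9* (chr7:26173159-26173408), *Cyp2b13* (chr7:26061245-26061494) and *Cyp2b10* (chr7:25897408-25897657), from RefSeq on GRCm38.p6, all on the plus strand and written 5′ to 3′. Capitals mark matches on either strand to TTNCNNAA, a form of the element of C/EBP factors, to AGGTCA, the core element of nuclear receptors such as CAR and PXR, and to GCGTG, the core element of AhR.
Cyp2b9: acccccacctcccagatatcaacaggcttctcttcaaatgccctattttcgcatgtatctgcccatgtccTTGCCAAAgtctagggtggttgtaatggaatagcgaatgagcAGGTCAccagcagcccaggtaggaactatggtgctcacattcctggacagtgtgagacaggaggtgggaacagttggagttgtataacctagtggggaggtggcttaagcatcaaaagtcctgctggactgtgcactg
Cyp2b13: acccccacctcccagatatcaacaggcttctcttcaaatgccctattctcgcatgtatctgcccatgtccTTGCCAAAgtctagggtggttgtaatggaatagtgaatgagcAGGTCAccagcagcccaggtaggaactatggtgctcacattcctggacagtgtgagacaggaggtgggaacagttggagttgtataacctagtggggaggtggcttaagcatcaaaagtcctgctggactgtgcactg
Cyp2b10: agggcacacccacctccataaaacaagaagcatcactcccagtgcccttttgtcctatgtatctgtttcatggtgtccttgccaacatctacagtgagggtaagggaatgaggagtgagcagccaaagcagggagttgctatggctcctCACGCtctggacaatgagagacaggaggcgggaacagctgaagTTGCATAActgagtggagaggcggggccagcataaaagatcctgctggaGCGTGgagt

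The windows of *Cyp2b9* and *Cyp2b13* were identical at 248 of 250 bases. Counted from 1 at the 5′ end of the printed window, with the base of *Cyp2b9* first, the differences were T48C and C104T. The window of *Cyp2b10* was 71.0% identical to either of them in a global alignment of 262 columns. *Cyp2b9* and *Cyp2b13* shared a TTNCNNAA match that begins 180 bases before the start and an AGGTCA match that begins 138 bases before it. *Cyp2b10* had its TTNCNNAA match 58 bases before the start and GCGTG matches 101 and 9 bases before it. No match overlapped another. None of these windows held TTCNNNGAA, the element of STAT factors, or TATAAA, the TATA box. Sequence farther upstream than these 250 bases was not searched, so that a gene without a match here may have one elsewhere.

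The same searches over the 250-base windows of all 32851 promoter entries found TTNCNNAA in 36.8%, GCGTG in 28.2%, AGGTCA in 14.0%, TATAAA in 12.4% and TTCNNNGAA in 7.02%. The table held 52 entries for 49 of the P450 members. Of these, 23 (44.2%) held TATAAA, 16 (30.8%) AGGTCA, 23 (44.2%) TTNCNNAA, 8 (15.4%) GCGTG and 1 (1.92%) TTCNNNGAA. Many of these genes arose by duplication, so that their windows are not independent, and a match is a run of letters and not a measured binding site.

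*Agpat3* itself was read first as a check of the labels. Its brighter probe was lower in every KO liver than in any WT liver, by 69.7-fold (limma adjusted p = 4.46e-07). Of the 6 hepatocyte markers all were tested and none was called, with log2 fold changes between -0.33 and 0.21. *Alb*, the albumin gene, lay between 10.42 and 10.62 in both genotypes. In whole tissue, fewer cells of a type and less RNA per cell cannot be told apart, and this holds for every gene below.

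Of the 56 P450 members, 47 were well above background on all 8 arrays, and these were the members tested. The other 9 were below the filter, which asks for 4 arrays of at least 1 genotype well above background. Of these, *Cyp2b19*, *Cyp2b23*, *Cyp2c39*, *Cyp2c65*, *Cyp2c66*, *Cyp2j11* and *Cyp3a44* had no array well above background. *Cyp1b1*, which oxidizes estrogens and polycyclic hydrocarbons, was well above background on 2 WT arrays and on no KO array, and *Cyp2b13* on 1 KO array and on no WT array.

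No P450 member was called between the genotypes. A call asked for an adjusted p from limma under 0.2, taken over 29069 probes, together with more than a 1.5-fold difference. At this rule 0 of the 47 members tested were higher and 0 were lower in KO, where 1.01% of the 14067 genes tested in the same way were higher and 0.754% were lower. An unadjusted p under 0.05 was reached by 4 members (8.51%), against 14.0% of all genes tested. The values of the genotypes did not overlap for 3 members (6.38%), against 9.72% of all genes. The unpaired t test with the same adjustment called 0 members as well. Some other settings did call members, among them *Cyp2b10* under normexp background correction, and *Cyp2b9* and *Cyp2b10* when an unadjusted p under 0.2 was asked for. A fit with a block for replicate number, which is also the slide column, called *Cyp2b9* (limma adjusted p = 0.121) and *Cyp2b10* (limma adjusted p = 0.0783). The main fit did not take samples of the same number as pairs, for the reason given in the last section.

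The median log2 fold change over the 47 members was -0.08, beside -0.03 over all genes tested. Of the members 19 (40.4%) had a value above 0 and 28 below, beside 42.0% above 0 over all genes tested. For 31 of the 47 the 95% interval of the fold change lay within 1.5-fold in either direction, and for 16 it did not. Among these 16 the interval of *Cyp2b9* lay wholly above 1.5-fold, though its limma adjusted p was 0.263. For the rest of them a change of that size was neither shown nor kept out by the interval. The standard errors (SE) ran from 0.07 to 0.99 on the log2 scale with a median of 0.13, beside a median of 0.11 over all genes tested.

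**Figure D1:**
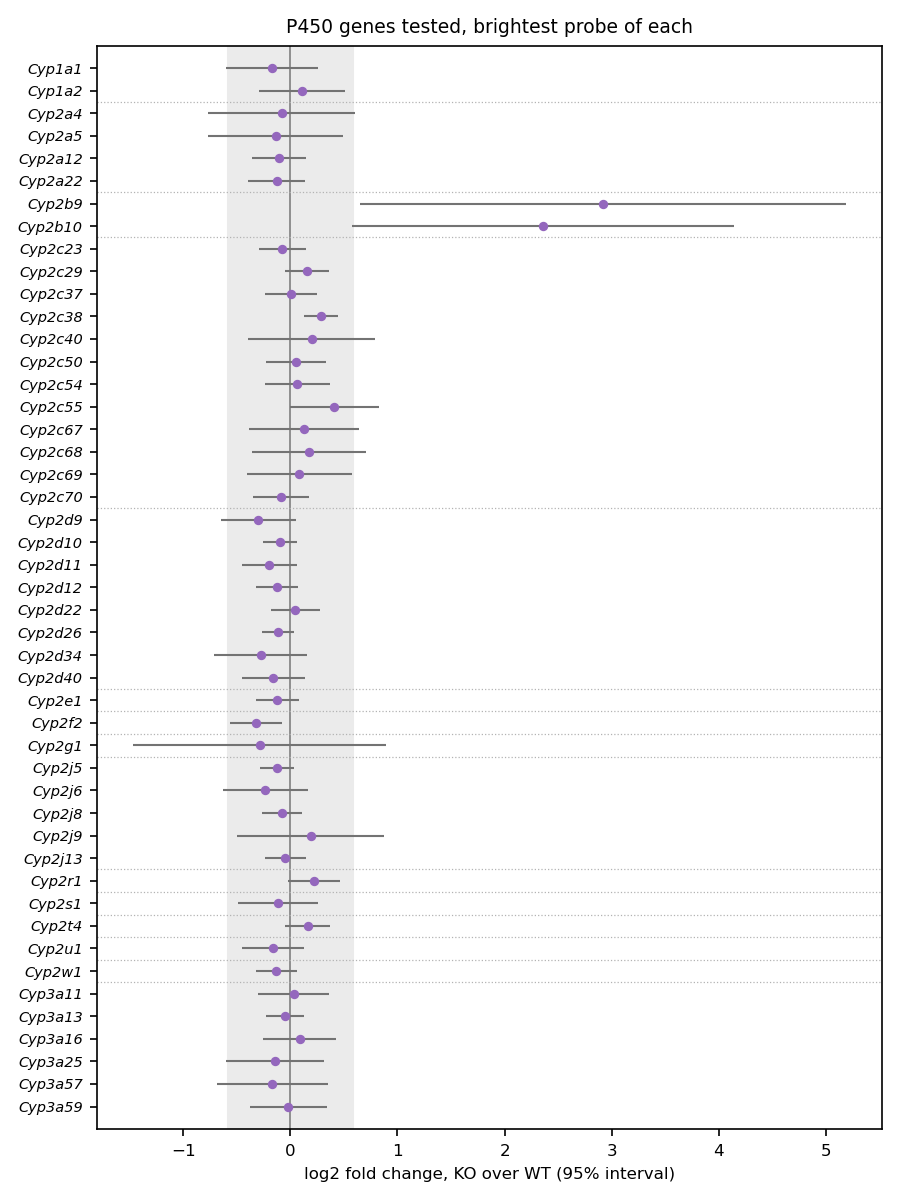
Log2 fold change of KO over WT liver for each of the 47 P450 genes tested, with the 95% interval of limma as a bar. The grey band marks a fold change of 1.5 in either direction, and *Cyp2b9* and *Cyp2b10* are the only members whose value lies outside it.

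The largest differences were those of *Cyp2b9* and *Cyp2b10*, which encode enzymes that hydroxylate drugs and steroids. *Cyp2b9* is known as a female-biased gene in mouse liver, and *Cyp2b10* as the standard target of CAR. The *Cyp2b9* signal was -3.47, -1.01, -0.36 and -1.10 in the WT livers and 0.02, 0.81, 4.21 and 0.72 in the KO livers. Every KO liver lay above every WT liver, WT replicate 1 was the lowest of all and KO replicate 3 the highest. The means were -1.48 ± 1.37 in WT and 1.44 ± 1.88 in KO (SD, n = 4 each). The log2 fold change was 2.92 (95% interval 0.66 to 5.19, limma adjusted p = 0.263), or 7.58-fold, and the exact permutation test gave the smallest p that 4 mice against 4 allow (two-sided, p = 0.0286). Any gene whose genotypes do not overlap gets this permutation p, and 9.72% of all genes tested had no overlap. Members were named for lack of overlap, so that this p adds nothing beyond it. The spread between livers of 1 genotype was wide for *Cyp2b9*, and the adjusted p missed the threshold. With a block for replicate number, which is also the slide column, the limma adjusted p was 0.121 at the same fold change.

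*Cyp2b10* had a brighter and a dimmer probe. The brighter probe read -1.80, 0.34, 1.12 and 0.53 in WT and 1.11, 2.20, 4.23 and 2.10 in KO. The genotypes overlapped at 1 point, where KO replicate 1 lay just below WT replicate 3, and the lowest and highest livers were again WT replicate 1 and KO replicate 3. Its log2 fold change was 2.36 (95% interval 0.58 to 4.14, limma adjusted p = 0.255). The dimmer probe read -5.99, -3.46, -2.99 and -3.91 in WT and -2.58, -1.78, -0.99 and -1.96 in KO, with no overlap. It was well above background on all 4 KO arrays but on only 3 of the 4 WT arrays, not that of WT replicate 1, so that it was tested only because of the genotype in which it was high. Its log2 fold change was 2.26 (SE 0.63, limma adjusted p = 0.188), and it was called higher, where 0.939% of all probes tested were. No other member probe was called in either direction, and 0.726% of all probes were called lower. This call is given as a description.

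The call of the dimmer *Cyp2b10* probe was lost in 7 of the 8 fits that left out 1 array, those without WT replicate 2, 3 or 4 or any KO replicate, where its log2 fold change lay between 1.98 and 2.63 and its adjusted p between 0.224 and 0.326. Without WT replicate 1 the values were 1.63 and 0.175. The call was also lost with no filter on dim probes (limma adjusted p = 0.401) and with the unpaired t test (adjusted p = 0.296). Under normexp background correction its log2 fold change was 0.73, with an adjusted p of 0.131. Neither *Cyp2b9* nor the brighter *Cyp2b10* probe was called in any of the fits that left out 1 array. The brighter *Cyp2b10* probe was called under normexp, with a log2 fold change of 2.09 (limma adjusted p = 0.193). With a block for replicate number *Cyp2b9* was called, as were both *Cyp2b10* probes. The limma adjusted p with this block was 0.0783 for the brighter *Cyp2b10* probe and 0.0813 for the dimmer. Without KO replicate 3, the log2 fold change of *Cyp2b9* was 2.00 (limma adjusted p = 0.309) and that of *Cyp2b10* 1.75 (limma adjusted p = 0.353). Without WT replicate 1 the values were 2.26 for *Cyp2b9* (limma adjusted p = 0.389) and 1.75 for *Cyp2b10* (limma adjusted p = 0.352).

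*Cyp2b13*, another female-biased member with an upstream window almost identical to that of *Cyp2b9*, was well above background only in KO replicate 3, at -2.62. In the other KO livers its probe read -5.99, -5.68 and -5.60, and in the WT livers -6.12, -5.20, -6.32 and -5.82, all not well above background. The liver that was highest for *Cyp2b9* and *Cyp2b10* was thus the one in which *Cyp2b13* was detected. *Cyp2b19* and *Cyp2b23* were not detected in any liver. The *Cyp2b* genes are close relatives, and how far RNA of 1 of them binds the probes of another was not tested.

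**Figure D2:**
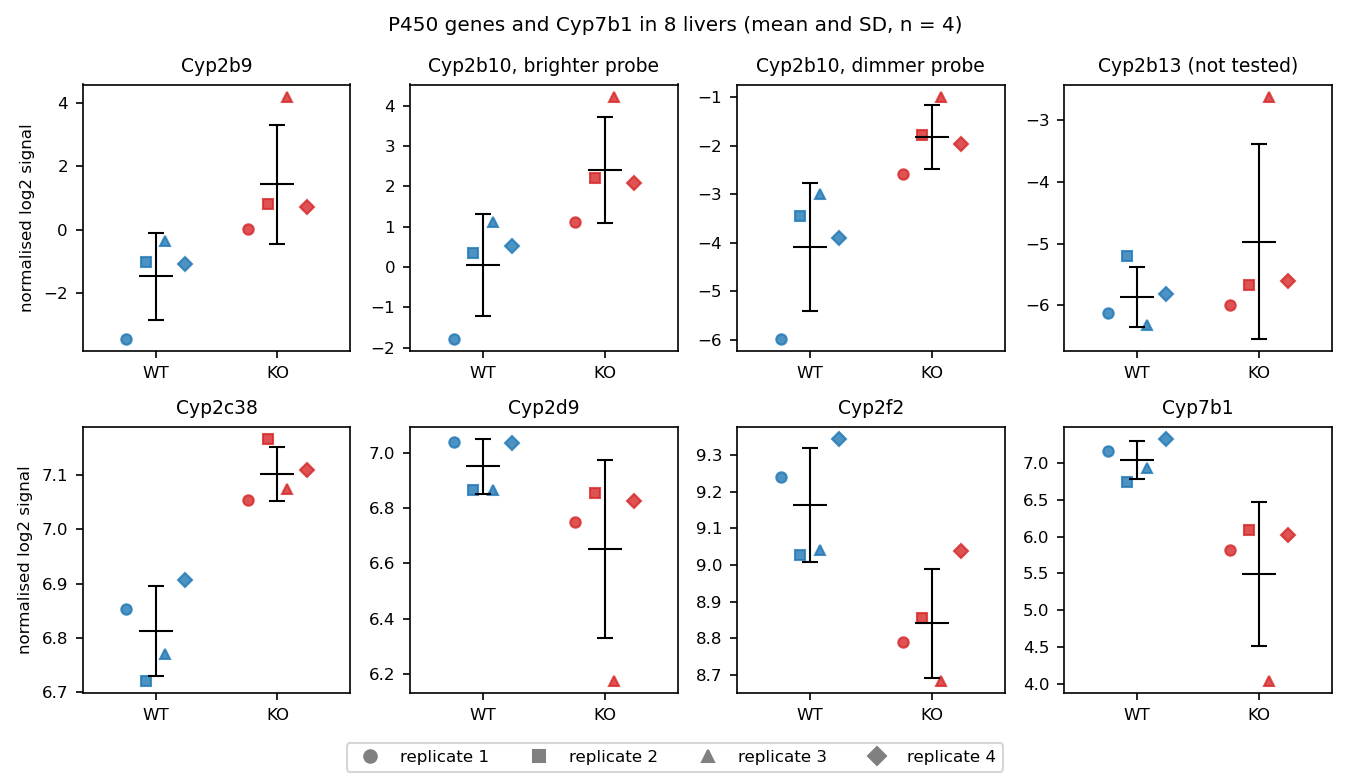
Normalised log2 signal in each liver for the P450 genes described one by one and for *Cyp7b1*, with the mean and SD (n = 4 livers per genotype) and a symbol for each replicate number. KO replicate 3 (triangle) is the highest point for the *Cyp2b* probes and the lowest for *Cyp2d9*, *Cyp2f2* and *Cyp7b1*, and each panel has its own axis.

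The family 1 genes are the classical targets of AhR. *Cyp1a1* read -3.20, -2.51, -2.69 and -3.04 in WT and -3.13, -3.15, -2.61 and -3.21 in KO, a log2 fold change of -0.17 (95% interval -0.60 to 0.26, limma adjusted p = 0.755). *Cyp1a2*, the abundant hepatic form, had a log2 fold change of 0.11 (95% interval -0.29 to 0.52, limma adjusted p = 0.836). The groups overlapped for both.

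The *Cyp1b1* probe read -3.80, -3.82, -3.76 and -4.13 in WT and -4.56, -5.99, -5.56 and -5.10 in KO, lower in every KO liver. Only 2 WT arrays and no KO array measured it well above background, so that no fold change or bound is given. It was not tested in the fit.

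*Cyp2c* was the largest subfamily, with 15 members, of which 12 were tested. These enzymes include the main fatty acid epoxygenases of mouse liver. *Cyp2c38*, whose product forms epoxides of arachidonic acid, was the only P450 member with an adjusted p under 0.2. It read 6.85, 6.72, 6.77 and 6.91 in WT and 7.05, 7.17, 7.07 and 7.11 in KO. Every KO liver lay above every WT liver, and the spread within each genotype was small. The log2 fold change was 0.29 (SE 0.07, limma adjusted p = 0.132), which is 1.22-fold and under the fold change that a call asks for. The exact permutation p was 0.0286, as for any gene without overlap. With 1 array left out the adjusted p lay between 0.128 and 0.304. How far the *Cyp2c38* probe binds RNA of other *Cyp2c* genes was not tested.

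None of the other *Cyp2c* genes passed the test. *Cyp2c55*, which hydroxylates arachidonic acid and responds to CAR and PXR, read 0.28, 0.87, 0.57 and 0.29 in WT and 0.73, 0.72, 1.36 and 0.84 in KO, with KO replicate 3 the highest. Its log2 fold change was 0.41 (95% interval -0.01 to 0.83, limma adjusted p = 0.382), and 0.26 without that liver. *Cyp2c29* had a log2 fold change of 0.16 (95% interval -0.05 to 0.36), and *Cyp2c37*, *Cyp2c50* and *Cyp2c54* lay between 0.01 and 0.06. *Cyp2c23*, the gene also called *Cyp2c44*, had a value of -0.07, and *Cyp2c70*, which makes the muricholic acids of mouse bile, -0.09. Over the 12 genes, 10 values were above 0, and 6 of 12 were when WT replicate 4 was left out.

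WT replicate 4 stood apart in a group of closely related *Cyp2c* genes. *Cyp2c40* read 5.36, 5.64, 5.13 and 4.38 in WT and 5.22, 5.40, 5.64 and 5.06 in KO, with WT replicate 4 far below the rest. It was the lowest of the 8 livers for *Cyp2c67* as well, at 6.73 against 7.33 to 7.86 elsewhere. The same held for *Cyp2c68*, at 6.19 against 6.82 to 7.30, and for *Cyp2c69*, at 6.33 against 6.83 to 7.41. Their log2 fold changes were between 0.09 and 0.20, with standard errors between 0.21 and 0.26. How far these probes share RNA of the near-identical genes was not tested.

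In the *Cyp2a* group all 4 members were tested and all overlapped. *Cyp2a5*, the coumarin hydroxylase, read 7.62, 8.24, 8.42 and 8.74 in WT and 7.60, 7.94, 8.42 and 8.51 in KO. Its near relative *Cyp2a4*, a female-biased steroid hydroxylase, read 6.87, 7.49, 7.68 and 8.06 in WT and 6.90, 7.17, 7.87 and 7.84 in KO. For both genes replicate 1 was the lowest and replicate 4 the highest or close to it in each genotype. The log2 fold changes were -0.14 for *Cyp2a5* and -0.08 for *Cyp2a4*, with 95% intervals of -0.77 to 0.50 and -0.77 to 0.61. *Cyp2a12*, a bile acid hydroxylase, and *Cyp2a22* had values of -0.11 and -0.13.

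The *Cyp2d* genes, which include the male-biased testosterone hydroxylase *Cyp2d9*, gave values below 0 for 7 of 8 members and passed the test for none. *Cyp2d9* read 7.04, 6.86, 6.86 and 7.04 in WT and 6.75, 6.85, 6.17 and 6.83 in KO. Every KO liver lay below every WT liver, but 3 of the KO livers lay just below the lowest WT value, and KO replicate 3 stood far below them. This gave a log2 fold change of -0.30 (95% interval -0.65 to 0.05, limma adjusted p = 0.452), and -0.14 without KO replicate 3. The exact permutation p was 0.0286, as for any gene without overlap. *Cyp2d34* had a log2 fold change of -0.28 (95% interval -0.71 to 0.16, limma adjusted p = 0.585) and -0.08 without KO replicate 3, with that liver at 1.54 and the other 7 livers between 2.22 and 2.58. KO replicate 3 was the lowest of the 8 livers for 7 of the 8 *Cyp2d* members. Without it, 7 of 8 values were still below 0, and their median moved from -0.14 to -0.07.

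*Cyp2f2*, a periportal enzyme that oxidizes naphthalene, had the most negative log2 fold change of the 47 members tested. It read 9.24, 9.03, 9.04 and 9.34 in WT and 8.79, 8.86, 8.68 and 9.04 in KO. Only KO replicate 4 reached the WT range. The log2 fold change was -0.32 (95% interval -0.57 to -0.08, limma adjusted p = 0.255, exact permutation p = 0.0571), or 1.25-fold lower, and its interval lay within a fold change of 1.5. Beside it, *Cyp2e1*, the pericentral enzyme of ethanol and ketone oxidation, had a log2 fold change of -0.12 (95% interval -0.32 to 0.08, limma adjusted p = 0.607).

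*Cyp2g1*, best known from olfactory tissue, was the third most variable member. It read -1.48, -1.12, -0.64 and 0.49 in WT and -1.32, -1.10, -1.71 and 0.25 in KO, high in replicate 4 of both genotypes. Its log2 fold change was -0.29 (95% interval -1.47 to 0.89, limma adjusted p = 0.854), and it was 0.10 without WT replicate 4.

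The *Cyp2j* genes encode further epoxygenases, and 5 of the 6 were tested. *Cyp2j5* had a log2 fold change of -0.12 (95% interval -0.28 to 0.04) on its brighter probe and 0.13 on its dimmer probe, so that the probes differed in sign, with both within the spread. *Cyp2j6* had a value of -0.23 (95% interval -0.63 to 0.16, limma adjusted p = 0.619), with KO replicate 1 the lowest at 1.16, and -0.08 without that liver. *Cyp2j9* had a value of 0.19 (95% interval -0.50 to 0.88) and read 1.76 in WT replicate 4 and 1.501 in KO replicate 4, above the other 6 livers, which lay between 0.33 and 1.03.

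Of the remaining members of family 2 none passed the test. *Cyp2r1*, the vitamin D 25-hydroxylase, read 3.60, 3.52, 3.53 and 3.94 in WT and 3.82, 3.82, 4.01 and 3.85 in KO, where WT replicate 4 alone reached the KO range. The difference was 0.22 on the log2 scale (95% interval -0.02 to 0.47, limma adjusted p = 0.413) and 0.32 without WT replicate 4. *Cyp2s1*, *Cyp2t4*, *Cyp2u1* and *Cyp2w1* had values of -0.11, 0.16, -0.16 and -0.13.

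The *Cyp3a* genes, the main PXR targets, had 0 of 6 tested members called. *Cyp3a11*, the major inducible form in mouse liver, read 7.09, 6.93, 7.18 and 7.61 in WT and 7.14, 7.10, 7.37 and 7.33 in KO, a log2 fold change of 0.03 (95% interval -0.30 to 0.37, limma adjusted p = 0.947). The values of the other *Cyp3a* members tested were between -0.17 and 0.09. WT replicate 4 was the highest of the 8 livers for all 6 *Cyp3a* members tested. Without it, the log2 fold change was above 0 for all 6, with a median of 0.08 in place of -0.03, and none was called.

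**Figure D3:**
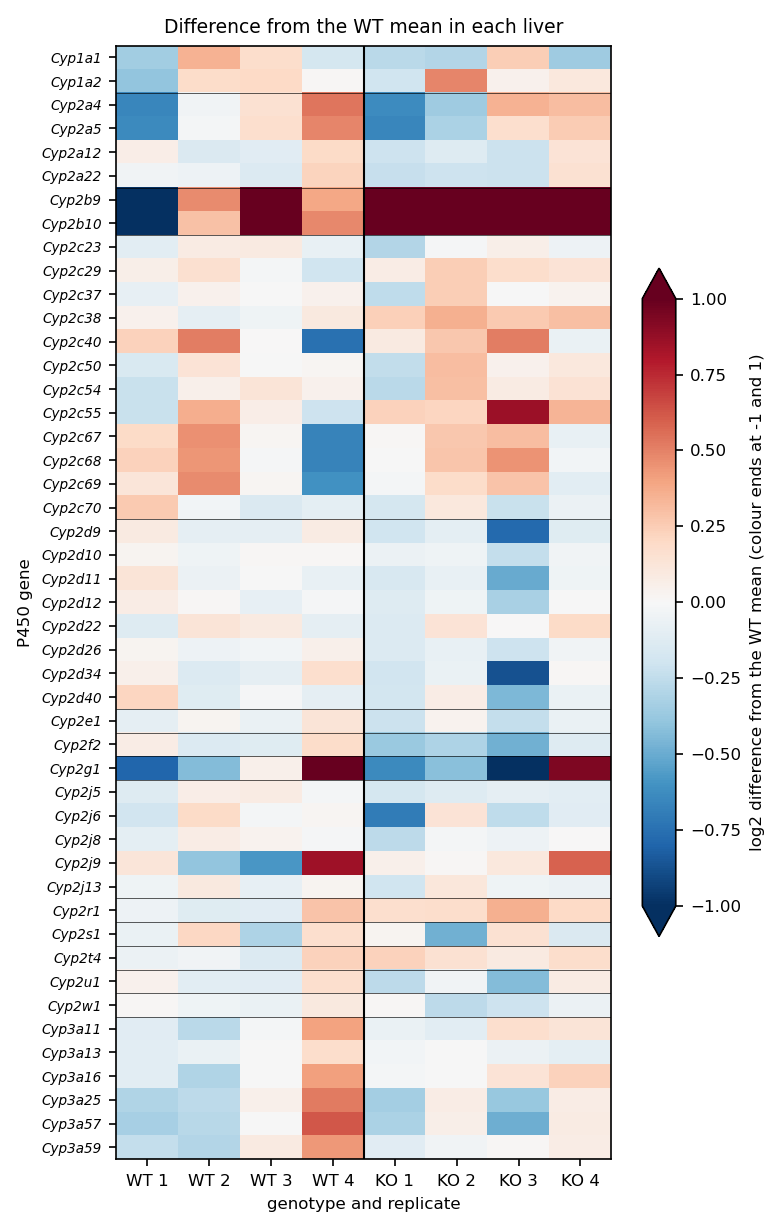
Difference of each liver from the WT mean of the same gene, in log2 units, for the 47 P450 genes tested, with livers in columns and genes grouped by subfamily in rows. *Cyp2b9*, *Cyp2b10* and *Cyp2g1* exceed the ends of the colour scale at -1 and 1, WT replicate 4 is high across *Cyp3a* and low in *Cyp2c40*, *Cyp2c67*, *Cyp2c68* and *Cyp2c69*, and KO replicate 3 is the lowest for 7 of the 8 *Cyp2d* genes.

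The livers differed from each other in these genes apart from genotype. The median SD within a genotype was 0.19 over the 47 members and 0.16 over all genes tested. *Cyp2b9*, at 1.64, varied more than 99.97% of all genes tested and *Cyp2b10*, at 1.29, more than 99.9%. WT replicate 4 was the highest of the 8 livers for 19 of the 47 members (40.4%), beside 21.7% of all genes tested. KO replicate 3 was the lowest for 15 members (31.9%), beside 12.5% of all genes.

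Lists of genes that share a regulator or a trait with the P450 members were read next. Over all genes tested 1.01% were called higher, 0.754% were called lower and 42.0% had a value above 0. The genotypes did not overlap in 9.72% of all genes tested. Since so few genes were called, 0 called in a short list does not show that its genes were unchanged. Of the members held to be female-biased, 5 of 7 were tested and none was called, with *Cyp2b9* far above the rest, which lay between -0.08 and 0.20. Of the 11 other female-biased liver genes on the array, 3 were tested, with values between -0.01 and 0.07, and 6 had no array well above background. Among these 6 were *Cux2*, *Sult2a1* and *A1bg*, which define a female liver program.

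Of 12 other male-biased liver genes 11 were tested, and 1 was called lower, beside 0.754% of all genes tested. The list was chosen with earlier results of these data known, so that this count is only a description. *Cyp7b1*, the oxysterol 7-alpha-hydroxylase of bile acid synthesis, fell in KO liver. It read 7.16, 6.74, 6.93 and 7.33 in WT and 5.82, 6.09, 4.04 and 6.03 in KO, without overlap. This was a log2 fold change of -1.55 (SE 0.43, limma adjusted p = 0.188, exact permutation p = 0.0286, as for any gene without overlap). Without KO replicate 3 it was -1.06 (limma adjusted p = 0.0538). Without any other array the call was lost, with log2 fold changes between -1.74 and -1.45 and adjusted p between 0.218 and 0.347. It was also lost with no filter on dim probes (limma adjusted p = 0.403) and with the unpaired t test (adjusted p = 0.295). Its dimmer probe had a log2 fold change of -1.62 and an adjusted p of 0.208, just past the threshold.

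*Elovl3*, a fatty acid elongase, had a log2 fold change of -0.98 (limma adjusted p = 0.280) and the complement gene *C6* one of -0.74 (limma adjusted p = 0.464). Without KO replicate 3 these were -0.62 for *Elovl3* and -0.36 for *C6*. *Ugt2b38* was lower in every KO liver, with a log2 fold change of -0.21 (limma adjusted p = 0.275). Of the 11 genes tested 9 had values below 0 and 2 above, *Cyp4a12a* at 0.16 and *Cyp4a12b* at 0.21. KO replicate 3 was the lowest of the 8 livers for 9 of the 11 genes, and without it the median of the list moved from -0.15 to -0.07. The same liver was the highest for *Cyp2b9* and *Cyp2b10*.

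The growth hormone pathway, which sets this sex bias, had 0 of 9 genes called. Over all genes tested 1.01% were called higher and 0.754% lower. *Igf1* was lower in every KO liver, with a log2 fold change of -0.21 (SE 0.07, limma adjusted p = 0.248). *Stat5b* had a value of 0.06. *Cish* and *Socs2*, which follow growth hormone pulses, varied widely between livers, with *Cish* between -0.11 and 3.68 in WT and between 0.15 and 3.73 in KO. *Bcl6*, a repressor of female-biased genes in males, read 3.39, 3.41, 5.25 and 5.40 in WT and 3.43, 3.27, 3.57 and 5.48 in KO.

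The regulators of the P450 genes had 0 of 14 tested genes called. *Nr1i3*, which encodes CAR, had a log2 fold change of 0.08 (95% interval -0.31 to 0.47). *Nr1i2*, which encodes PXR, had one of -0.17 (95% interval -0.39 to 0.04), and *Ahr* one of 0.08 (95% interval -0.56 to 0.72). *Rxra*, the partner of CAR and PXR, was lower in every KO liver, by 0.16 on the log2 scale (limma adjusted p = 0.356). *Hnf4a*, the nuclear receptor that maintains hepatocyte identity, had a value of -0.33 (limma adjusted p = 0.276). *Ahrr*, the AhR repressor, had no array well above background.

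Other targets of CAR and PXR had 0 of 14 genes called, with a median log2 fold change of 0.13 and 11 values above 0. *Abcb1a*, a drug efflux pump, had a value of 0.50 (95% interval 0.00 to 1.01, limma adjusted p = 0.375) and *Slco1a4*, an organic anion transporter, 0.46 (95% interval -0.37 to 1.29, limma adjusted p = 0.646). *Gsta2*, a glutathione transferase, had a value of -0.28. Of 4 other AhR targets tested none was called, with *Tiparp* at 0.57 (limma adjusted p = 0.294), *Nqo1* at 0.26, *Aldh3a1* at 0.06 and *Ugt1a6a* at -0.21.

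**Figure D4:**
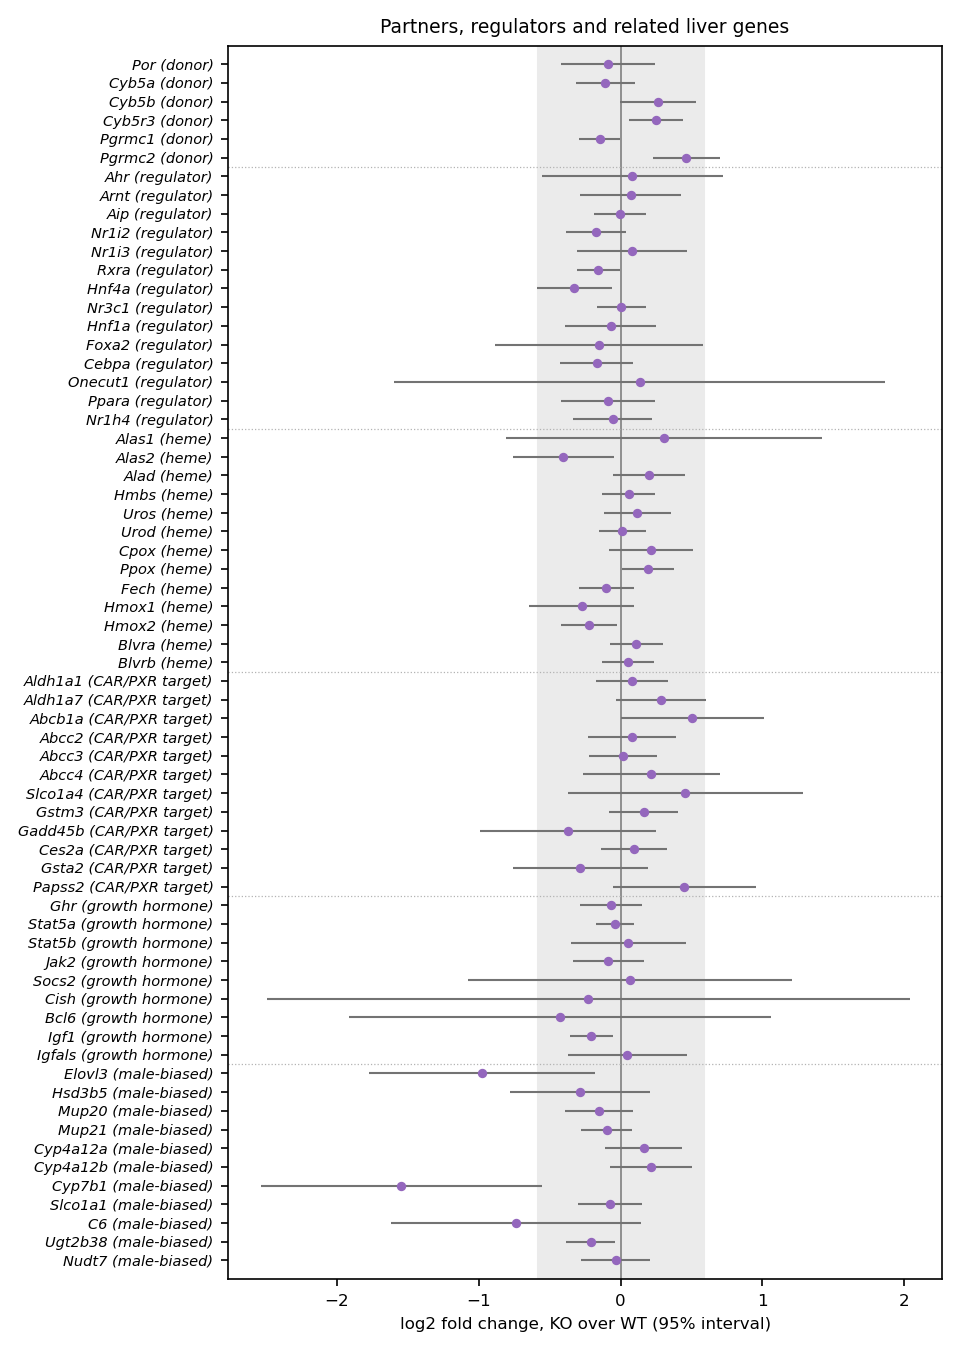
Log2 fold change of KO over WT liver, with 95% intervals of limma, for the genes tested among electron donors, regulators, heme enzymes, other CAR and PXR targets, growth hormone signalling and other male-biased genes. The grey band marks 1.5-fold, and *Cyp7b1*, at -1.55, is the only gene shown that was called.

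The proteins that hand electrons to P450 enzymes or bind them had 0 of 6 genes called. *Por*, the P450 oxidoreductase, read 5.98, 6.19, 6.37 and 6.42 in WT and 5.96, 6.51, 6.12 and 6.03 in KO, a log2 fold change of -0.09 (95% interval -0.42 to 0.24, limma adjusted p = 0.839). *Pgrmc2*, a heme-binding membrane protein, read 1.41, 1.27, 1.25 and 1.15 in WT and 1.79, 1.48, 1.78 and 1.89 in KO. All KO livers lay above all WT livers, and the log2 fold change was 0.46 (SE 0.10, limma adjusted p = 0.117), or 1.38-fold and thus under the fold change of a call. *Cyb5r3*, which reduces cytochrome b5, was higher in every KO liver by 0.25 on the log2 scale (limma adjusted p = 0.259), and *Pgrmc1* was lower in every KO liver by 0.15 (limma adjusted p = 0.371).

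Heme synthesis and breakdown had 0 of 13 genes called. *Alas1*, the first and limiting enzyme of heme synthesis in liver, read 8.77, 7.10, 7.11 and 6.85 in WT and 8.15, 8.36, 7.82 and 6.75 in KO. Its log2 fold change was 0.31 with a wide 95% interval of -0.80 to 1.42 (limma adjusted p = 0.834). *Hmox1*, the inducible heme oxygenase, had a value of -0.28 (95% interval -0.65 to 0.10) and *Hmox2* was lower in every KO liver, by 0.23 on the log2 scale (limma adjusted p = 0.314). The epoxide hydrolases that open the epoxides made by *Cyp2c* and *Cyp2j* enzymes had 0 of 3 tested genes called. *Ephx2*, the soluble form, had a value of 0.09 (95% interval -0.09 to 0.27) and *Ephx1* one of -0.10. *Ephx3* was lower in every KO liver, with a log2 fold change of -0.19 (limma adjusted p = 0.382).

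Zonation of the liver lobule was read from the members known for their place and from other genes. Of the 8 pericentral P450 members none was called, and their values were between -0.14 and 0.16. *Cyp2f2* was the single periportal member, as given above. Other pericentral genes had 0 of 10 called, with 7 values below 0, a median of -0.09 and a range from -0.65 for *Lgr5* to 0.15 for *Rgn*. Other periportal genes had 0 of 10 called, with 8 values below 0, a median of -0.06 and a range from -0.34 for *Sds* to 0.04 for *Hsd17b13*.

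Markers of other cell types moved in a few cases, and their part in the P450 values was not tested. *Marco*, a scavenger receptor of Kupffer cells, fell in KO liver. It read 2.49, 2.87, 3.52 and 3.20 in WT and 1.33, 1.77, 2.25 and 1.84 in KO, a log2 fold change of -1.22 (SE 0.25, limma adjusted p = 0.0983). This call was lost without WT replicate 3 (limma adjusted p = 0.210), without KO replicate 2 (limma adjusted p = 0.213) and with no filter on dim probes (limma adjusted p = 0.233). The other 5 Kupffer cell markers were not called and lay between -0.17 and 0.04. The summed linear signal of the 6 probes, in which bright probes weigh most and that of *Cd5l* was the brightest, was 61.5, 78.3, 83.1 and 110.0 times the 75th percentile of the array in WT and 50.9, 81.0, 84.6 and 79.1 in KO. *Fabp2*, a fatty acid binding protein best known from intestine, rose from between 5.46 and 5.92 in WT to between 6.63 and 6.85 in KO (log2 fold change 0.99 or 1.99-fold, limma adjusted p = 0.0152). *Vil1*, the other intestinal marker listed with *Fabp2*, was tested and not called, with a log2 fold change of 0.26 (limma adjusted p = 0.572). The adipose markers *Adipoq* and *Plin1*, in the same list, had no array well above background.

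Endothelial, stellate cell, cholangiocyte, lymphocyte and pancreatic acinar markers had no gene called. The acute-phase genes, which the liver makes in inflammation, had 0 of 12 called, with 11 values below 0 and a median of -0.19. *Saa1* ranged from 5.26 to 8.08 in WT, with WT replicate 4 the highest, and from 4.91 to 7.06 in KO.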

How the data were processed

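Liver RNA of 4 WT and 4 KO mice was measured on one-color arrays. The authors deposited the Feature Extraction 10.7.1.1 output of each array, a linear processed intensity per spot after background correction with quality flags, and a table of log2 values. These differ from log2 of that intensity by 1 constant per array, close to minus the log2 of its 75th percentile. It was -8.142 against -8.146 in WT replicate 1 and -8.104 against -8.113 in KO replicate 4. The 75th percentile was between 261 and 309 intensity units over a median background of 27 to 32, and array number limits the precision. The sources do not say that the samples of a genotype came from separate litters or cages.

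Control and outlier spots were left out, log2 intensity was set relative to the 75th percentile, and 29069 of 56605 probes, those well above background in 4 of 4 samples of WT or KO, were tested. The test was limma's (version 3.58.1, lmFit and eBayes, R 4.3.3), two-sided, with p adjusted by Benjamini-Hochberg. Calls used the study's thresholds of 1.5-fold and 0.2, for which its figure legend does not state whether p was adjusted. Single genes also had an exact permutation test over 70 assignments. Names came from RefSeq on GRCm38.p6 for 32994 probes. The scanner output names another build, so only promoter entries carry coordinates. Genes named from the lists were those called and some others. The P450 members named included those without overlap, the 10 largest fold changes and those detected in 1 genotype. The members and the 28 lists were chosen with earlier results of these data known. The fit was tested on simulated data. Figures were drawn with matplotlib 3.10.9.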

Additional observations from a re-analysis of the deposited data

Results flagged for a closer look

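In 7 of 100 groups of 4 livers examined (47 P450 genes and 3 called marker or male-biased genes in each genotype), 1 liver stood apart from the other 3 by more than the 95% limit for such a gap. Chance gives about 1 in 20 for a single group. These groups are not independent, since related genes were read in the same livers and 3 genes were taken because they were called. All 7 were in KO. KO replicate 3 was the liver apart for *Cyp2d9*, at 6.17 against 6.75 to 6.85, for *Cyp2d10*, at 8.76 against 8.94 to 8.97, and for *Cyp7b1*, at 4.04 against 5.82 to 6.09. The same liver was above the others for *Cyp1a1*, at -2.61 against -3.21 to -3.13, and for *Cyp2r1*, at 4.01 against 3.82 to 3.85. KO replicate 4 was above the others for *Cyp2a22*, at 4.33 against 3.95 to 3.98, and for *Cyp2j9*, at 1.501 against 0.92 to 1.01. What set these livers apart was not tested.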

How the results depend on the processing

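No P450 member was called lower under any of the 21 alternatives, and the number called higher was 0 under 17 of them. It was 1 under normexp background correction (*Cyp2b10*, adjusted p = 0.193), 1 with no minimum fold change (*Cyp2c38*), 2 with an unadjusted p under 0.2 (*Cyp2b9* and *Cyp2b10*) and 2 with a replicate block (*Cyp2b9*, adjusted p = 0.121, and *Cyp2b10*, adjusted p = 0.0783). Samples with the same replicate number, which is also the column on the slide, were not taken as pairs, since the correlation of their deviations was 0.33, -0.11, 0.10 and 0.32 and 1 of 4 numbers did not correlate best with itself. With 1 array left out the count was 0 in all 8 fits. The probes called, 273 higher and 211 lower, were 181 and 65 under normexp, where 73.6% of the calls were higher in place of 56.4%. They were 122 and 131 with no filter on dim probes, 165 and 104 with the unpaired t test, 82 and 35 at an adjusted p under 0.05, 557 and 645 with no minimum fold change, and 534 and 451 with an unadjusted p. The stricter filter left 126 lower. With 1 array left out, 152 to 334 were higher and 105 to 311 lower, the fewest without WT replicate 3, and the lower count was also low without WT replicate 2 (110) and KO replicate 2 (109). The median log2 fold change of the P450 genes lay between -0.10 and -0.00067 with 1 array left out, nearest 0 without KO replicate 1. The log2 fold change of *Cyp2g1* lay between -0.69 and 0.10, above 0 without WT replicate 4. The causes were not tested. *Cyp2b9* kept a log2 fold change between 2.00 and 3.40 and the brighter *Cyp2b10* probe between 1.75 and 2.79 over all alternatives, with adjusted p between 0.121 and 0.531 and between 0.0783 and 0.511. For the 7 members with no array above background no difference was detectable.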
